A study of Mus musculus with 24 samples.

Results

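H3K4me3, the histone mark of active promoters, was examined at 5 genes for long noncoding RNAs that are retained in the nucleus, *Neat1*, *Malat1*, *Miat*, *Meg3* and *Rmst*. Their regions were chosen by position, as every counted region that overlaps an annotated transcription start site (TSS, the 5′ end of an annotated transcript) of a named gene. This gave 4 regions, 1 each for *Neat1*, *Malat1*, *Miat* and *Meg3*, and none for *Rmst*, so that 4 of the 5 genes were measured, among 14904 annotated genes with a TSS in any of the 17993 regions. The mark was measured in cerebral cortex of adult C57BL/6 mice by single ChIP-Seq, which uses the anti-H3K4me3 antibody alone, and by tChIP-Seq, in which chromatin was first purified through FLAG-tagged histone H2B and then precipitated with the same antibody. In *Rosa* H2B-FLAG mice (the *Rosa* line), the CAG promoter at *Rosa26* drives the tagged histone in nearly all cells, after a floxed stop had been removed through *Vasa* Cre. In *Camk2a* H2B-FLAG mice (the *Camk2a* line), the same floxed allele was combined with *CaMK* CreERT2, and tamoxifen, given to adult males heterozygous for both alleles a month before the tissue was taken, started expression in Camk2a-positive neurons, so that the tag was directed to a single broad class of neurons and to cells that recombined, while chromatin carried over from untagged cells was not measured here. *Rosa* H2B-FLAG mice carry the tag from early development, without CreERT2, and tamoxifen is not described for them. The 2 assays and the lines gave 4 groups of 3 libraries, each prepared from pooled tissue of a pair of animals. Within a line, the sample titles give the libraries of both assays the same numbers, so these may come from the same pools.

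Long noncoding RNAs of this kind stay in the nucleus and often build or join nuclear bodies. *Neat1* RNA is the scaffold of paraspeckles, *Malat1* RNA gathers in nuclear speckles with splicing factors, and *Miat* RNA, also called Gomafu, forms its own domains in neurons. *Meg3* is an imprinted gene transcribed from the maternal allele in the *Dlk1* cluster, and *Rmst* RNA takes part in neuronal differentiation.

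The *Neat1* region (chromosome 19, 5841138–5845718 in mm9, 4581 bp) held all 4 annotated starts of the gene, which lies on the minus strand. The *Malat1* region (chromosome 19, 5795386–5802620) was 7235 bp long and, by width, number 29 of the 17993 regions. It covered nearly the whole gene and held the starts of 2 short internal *Malat1* transcripts and of the antisense gene *Gm20417*, while the start of the full-length transcript, at 5802671, lay 51 bp beyond its edge. ChIP reads carry no strand of transcription, so *Malat1* and *Gm20417* cannot be told apart in it. The *Miat* region (chromosome 5, 112654380–112658399, 4020 bp) held the only annotated start of this minus strand gene, at 112657968. The *Meg3* region (chromosome 12, 110779194–110781232, 2039 bp) held 5 of its starts, on the plus strand.

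Total counts over all regions ranged from 6316125 to 8644574 in *Rosa* line single ChIP-Seq. For tChIP-Seq libraries of this line, they ranged from 1457261 to 1828371. In the *Camk2a* line, they lay between 4063200 and 4233144 for single ChIP-Seq, and between 2709729 and 3049130 for tChIP-Seq. The smallest count of a member region in any library was 24, for *Meg3* in *Rosa* line tChIP-Seq. Levels are given as CPM, the count scaled to the library's total count over all regions, after TMM scaling over all 12 libraries. Reads outside the regions do not enter this scaling.

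The lines were first compared in tChIP-Seq, which asks how the mark in Camk2a-positive neurons differs from that in all tagged cells of the cortex. *Miat* and *Meg3* were higher and *Neat1* was lower in the *Camk2a* line, and *Malat1* was slightly lower. The paper had already reported enrichment at *Miat* and a decrease at *Neat1* from these libraries, so the members were not chosen blind to their values. All 4 member regions were called at an adjusted p under 0.01, 2 in each direction. Of all regions 31.6% were called, 17.0% as higher and 14.6% as lower. It is also stated below whether groups overlapped, and the share of all regions without overlap was not determined.

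*Neat1* had 119, 120.5 and 129 CPM in the 3 *Rosa* line tChIP-Seq libraries and 26.2, 27.1 and 21.7 CPM in those of the *Camk2a* line. Every *Camk2a* line library lay far below every *Rosa* line library, and the groups did not overlap. *Neat1* differed by -2.28 on the log2 scale (SE 0.106, adjusted p = 1.26e-31), number 268 from the lowest of the 17993 regions. Whether fewer cells carried the mark or the mark was lower per cell cannot be told apart in these bulk samples.

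*Malat1* had 370.5, 359 and 363.5 CPM in *Rosa* line tChIP-Seq and 306, 320.4 and 313 CPM in *Camk2a* line tChIP-Seq. The *Camk2a* line libraries were again the lower ones and the groups did not overlap, but the distance between them was small. The log2 fold change was -0.21 (SE 0.0459, adjusted p = 6.49e-05), and its 95% confidence interval ran from -0.30 to -0.12.

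*Miat* had 64.7, 62.6 and 59.0 CPM in *Rosa* line tChIP-Seq and 123, 135 and 122 CPM in *Camk2a* line tChIP-Seq. All 3 *Camk2a* line libraries lay above all 3 of the *Rosa* line, and the difference was 1.02 on the log2 scale (SE 0.0873). *Meg3* had the lowest values of the 4 regions in *Rosa* line tChIP-Seq, 17.7, 14.3 and 22.3 CPM, against 53.2, 48.4 and 45.3 CPM in *Camk2a* line tChIP-Seq. Its groups did not overlap either, and its log2 fold change was 1.45 (SE 0.153, adjusted p = 1.97e-13), number 307 from the highest of all regions.

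**Figure D1:**
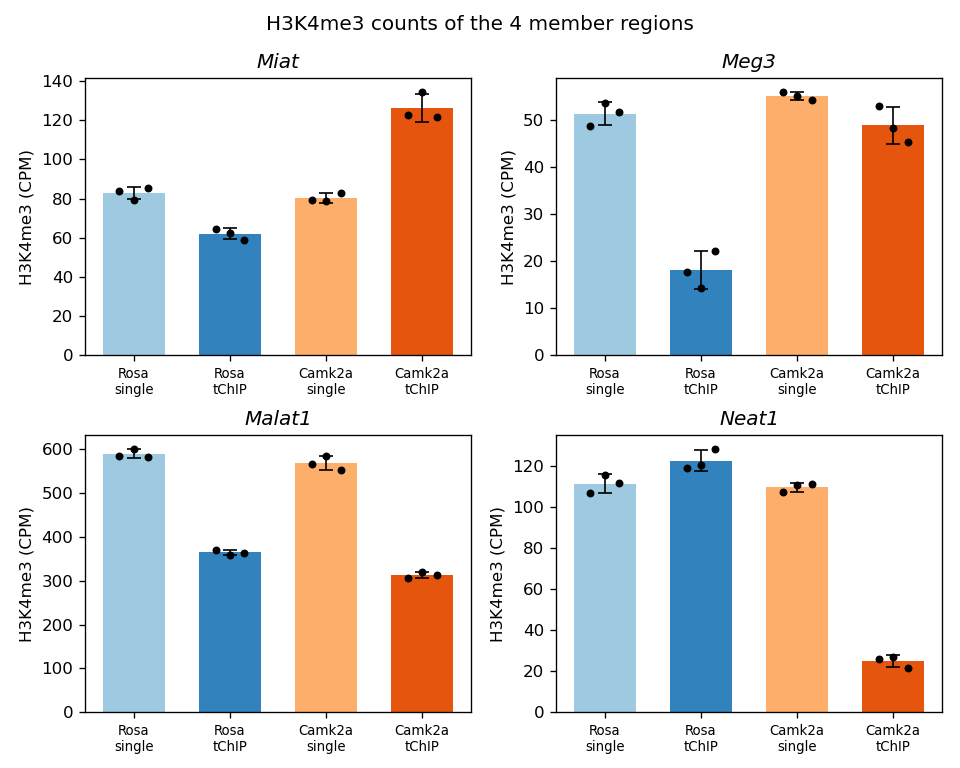
H3K4me3 level (CPM) of the *Miat*, *Meg3*, *Malat1* and *Neat1* regions in each group; bars are means, error bars are SD over 3 libraries and points are libraries. *Neat1* is low in *Camk2a* line tChIP-Seq, with a mean of 25.0 CPM, and *Meg3* is low in *Rosa* line tChIP-Seq, with a mean of 18.1 CPM.

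In single ChIP-Seq, which takes the mark from all cells of the tissue in both lines, the differences between the lines were small. *Neat1* had 107, 116 and 112 CPM in the *Rosa* line and 107, 111 and 111 CPM in the *Camk2a* line, and the groups overlapped. *Malat1* had 584, 600.5 and 582 CPM against 566, 583 and 552 CPM, which also overlapped. *Miat* had 83.9, 79.4 and 85.6 CPM against 79.3, 78.7 and 83.0 CPM, again with overlap. For *Meg3*, the 3 *Camk2a* line libraries, with 56.1, 55.1 and 54.3 CPM, lay just above the 48.8, 53.6 and 51.9 CPM of the *Rosa* line. None of the 4 member regions was called by edgeR (0 of 4, where 2.15% of all regions were called, 386 of them, and 118 without *Camk2a* line replicate 2), while 1 of them, *Malat1*, had an unadjusted p under 0.05. DESeq2 gave an adjusted p to 3691 of the 17993 regions here and called 17, or 0.461%. *Neat1* and *Malat1* were among those tested and were not called, and *Miat* and *Meg3* had no adjusted p from it. The log2 fold changes were -0.03 for *Neat1* (95% confidence interval from -0.13 to 0.07), -0.06 for *Malat1* (-0.11 to -0.01), -0.04 for *Miat* (-0.16 to 0.07) and 0.10 for *Meg3* (-0.05 to 0.24). The sign for *Neat1* turned without *Rosa* line replicate 2 (0.01) and with library totals (0.00).

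The assays were then compared within each line. The paper found differential enrichment between them in the *Rosa* line. It proposes a bias towards longer DNA, or effects of the tag or of the H2B used, as possible reasons. For its quantitative work it therefore relied mainly on the lines in tChIP-Seq. The part of such assay biases in the values below was not tested. Between tChIP-Seq and single ChIP-Seq of the *Rosa* line, 3 of the 4 member regions were called, all of them lower in tChIP-Seq, where 47.2% of all regions were called, 24.7% as higher and 22.5% as lower. *Meg3* fell the furthest of them, by 1.51 on the log2 scale (SE 0.139, adjusted p = 1.15e-25), and was number 23 from the lowest of the 17993 regions. *Malat1* fell by 0.68 on the log2 scale (SE 0.0351, adjusted p = 1.08e-80) and *Miat* by 0.40 (SE 0.0868, adjusted p = 2.03e-05). In all 3, the tChIP-Seq libraries lay below the single ChIP-Seq libraries. *Neat1* was the exception and was not called (0.14, SE 0.0664, adjusted p = 0.0565), although its tChIP-Seq libraries all lay above those of single ChIP-Seq. With library totals alone, which shift the median of all regions by 0.10 in this comparison, *Neat1* had a log2 fold change of 0.24 and was called (adjusted p = 0.000919), the only one of its 12 alternatives with a call, over which the adjusted p reached 0.242.

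In the *Camk2a* line, 3 of the 4 member regions were called between the assays, 1 higher and 2 lower in tChIP-Seq, where 47.9% of all regions were called, 25.3% as higher and 22.6% as lower. *Neat1* fell by 2.13 on the log2 scale (SE 0.0928, adjusted p = 1.14e-55) and was number 159 from the lowest. *Malat1* fell by 0.86 (SE 0.0364, adjusted p = 2.19e-57), so that tChIP-Seq gave the lower value in both lines. *Miat* rose by 0.65 (SE 0.0656, adjusted p = 9.91e-18). *Meg3* had a log2 fold change of -0.17 (95% confidence interval from -0.35 to 0.01, adjusted p = 0.104) and was not called.

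The difference between the line effect in tChIP-Seq and that in single ChIP-Seq was tested as an interaction over all 12 libraries. All 4 member regions were called, 2 above 0 and 2 below, where 26.9% of all regions were called, 13.7% as higher and 13.2% as lower. The interaction was 1.35 for *Meg3* (SE 0.172, adjusted p = 1.64e-12), 1.06 for *Miat* (SE 0.107, adjusted p = 1.47e-18) and -2.26 for *Neat1* (SE 0.118, adjusted p = 2.25e-49). For *Malat1* it was -0.17 (SE 0.0522, adjusted p = 0.00654), and this call was lost with the Wald test of DESeq2 and on leaving out any of 7 libraries, where the adjusted p reached 0.0335. The comparisons share libraries, so the values for a gene in different comparisons are not independent of each other.

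**Figure D2:**
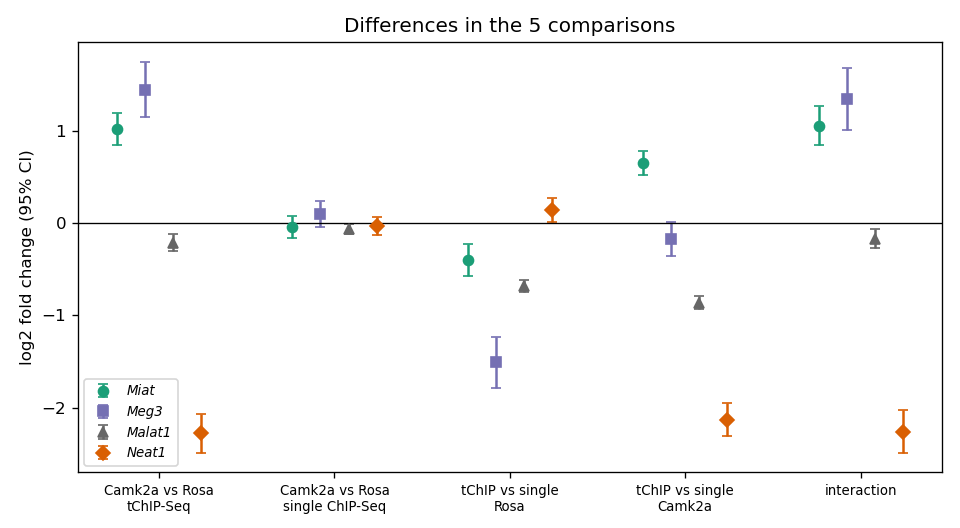
Log2 fold changes of *Miat*, *Meg3*, *Malat1* and *Neat1* in the 4 comparisons of groups and the interaction; points are estimates of edgeR and bars are 95% confidence intervals. The values for the lines lie near 0 in single ChIP-Seq and between -2.28 and 1.45 in tChIP-Seq.

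Ordered within each gene, the levels of *Neat1* were highest in *Rosa* line tChIP-Seq (123 ± 5.18 CPM, SD, n = 3), followed by single ChIP-Seq of the *Rosa* line (112 ± 4.52) and the *Camk2a* line (109.8 ± 2.18), which lay within their spread of each other, and by *Camk2a* line tChIP-Seq (25.0 ± 2.87). For *Miat*, the order was *Camk2a* line tChIP-Seq (126 ± 7.22 CPM), both kinds of single ChIP-Seq (83.0 ± 3.16 in the *Rosa* line and 80.3 ± 2.32 in the *Camk2a* line, within their spread), and *Rosa* line tChIP-Seq (62.1 ± 2.86). *Meg3* was low in *Rosa* line tChIP-Seq alone, and its other groups had means from 48.9 to 55.2 CPM. *Malat1* had its higher means in single ChIP-Seq, 589 ± 10.2 and 567 ± 15.6 CPM, and its lower means in tChIP-Seq, 364 ± 5.76 CPM in the *Rosa* line and 313 ± 7.18 CPM in the *Camk2a* line.

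Per kb of region, *Malat1* had the highest level of the 4 in every group. In *Rosa* line tChIP-Seq the levels were 50.4 CPM per kb for *Malat1*, 26.8 for *Neat1*, 15.4 for *Miat* and 8.89 for *Meg3*. In *Camk2a* line tChIP-Seq they were 43.3 CPM per kb for *Malat1*, 31.4 for *Miat*, 24.0 for *Meg3* and 5.46 for *Neat1*, which was thus the second highest of the 4 in one line and the lowest in the other.

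Ratios within a library do not depend on scaling. The count of *Miat* divided by that of *Neat1* was 0.544, 0.520 and 0.459 in *Rosa* line tChIP-Seq and 4.67, 4.97 and 5.59 in *Camk2a* line tChIP-Seq. In single ChIP-Seq it lay between 0.685 and 0.785 in all 6 libraries, so that the order of *Miat* and *Neat1* was turned around only in tChIP-Seq of the neuronal line. The ratio of *Malat1* to *Neat1* was 3.11, 2.98 and 2.83 in *Rosa* line tChIP-Seq and 11.7, 11.8 and 14.4 in *Camk2a* line tChIP-Seq. The ratio of *Meg3* to *Miat* was 0.274, 0.229 and 0.378 in *Rosa* line tChIP-Seq and 0.433, 0.359 and 0.373 in *Camk2a* line tChIP-Seq, and these overlapped. In single ChIP-Seq it was higher in every library, between 0.582 and 0.708.

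*Rmst* (chromosome 10, 91544491–91627923, minus strand) had no region at either of its annotated starts. The single region inside the gene (91624115–91625993) lies 1930 bp from its 5′ end, overlaps the start of *Gm17341* and was looked at after its values were seen. It had 23.0, 23.3 and 19.7 CPM in *Rosa* line tChIP-Seq and 19.4, 19.1 and 19.5 CPM in *Camk2a* line tChIP-Seq. The *Camk2a* line libraries all lay just below those of the *Rosa* line, without overlap. The region was called in none of the 5 comparisons, and its difference between the lines in tChIP-Seq was -0.18 on the log2 scale (SE 0.175, adjusted p = 0.431).

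The regions of *Malat1* and *Neat1* lie 38517 bp apart and moved by different amounts in tChIP-Seq of the lines. Of the 8 other regions reported within 100 kb of *Neat1*, 1 was called between the lines in tChIP-Seq, where 31.6% of all regions were. This region (5921564–5926476) overlaps no TSS and fell by 0.49 on the log2 scale (SE 0.104, adjusted p = 5.77e-05). Of the 9 reported within 100 kb of *Malat1*, 1 was called, a region without a TSS (5714856–5716956) that rose by 1.16 (SE 0.172, adjusted p = 2.39e-08). Between these, the promoters of *Frmd8*, *Fam89b*, *Sssca1*, *Dpf2* and *Tigd3* had log2 fold changes from -0.24 to 0.35, and none was called, though *Tigd3* was in 1 of 12 alternatives, without *Camk2a* line tChIP-Seq replicate 1. A narrow region between *Malat1* and *Neat1* (5817559–5818137) differed by -1.29 (SE 0.439, adjusted p = 0.0129) and was not called, but was in 2 of 11 alternatives, library totals and a single fit of all libraries. The other 3 regions without a TSS around the pair had values from -0.71 to 0.60 and were not called. Around *Miat*, none of 4 regions was called, against the same 31.6%, with log2 fold changes of 0.20 for *Tpst2*, which encodes a tyrosylprotein sulfotransferase, and -0.20 for *Tfip11*, a splicing factor gene, and of 0.34 and 0.98 for the regions without a TSS. No other region was reported within 100 kb of *Meg3*.

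**Figure D3:**
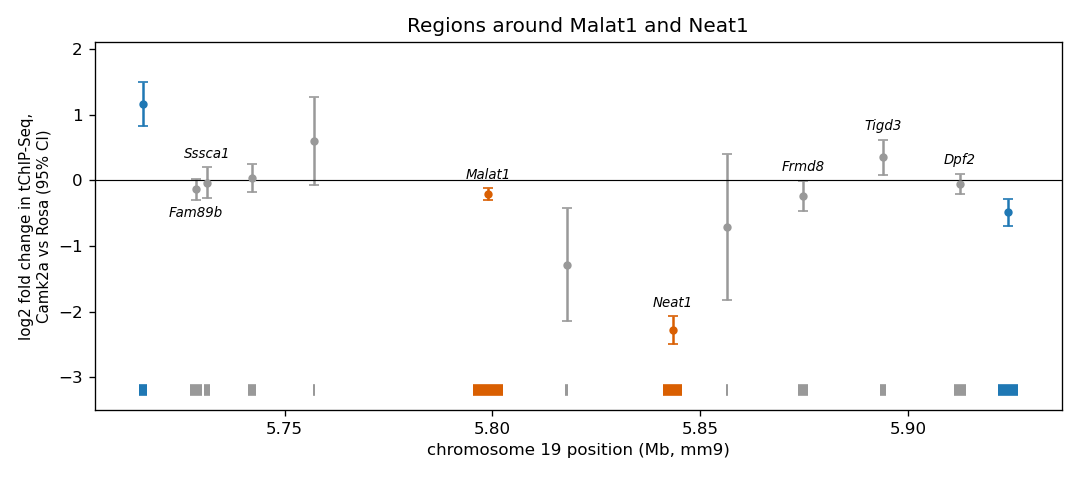
Regions reported within 100 kb of *Malat1* or *Neat1* on chromosome 19, drawn to scale as boxes below, with the log2 fold change between the *Camk2a* line and *Rosa* line tChIP-Seq and its 95% confidence interval above. Orange marks *Malat1* and *Neat1*, blue marks other called regions and grey marks regions not called; *Neat1* has the lowest value, -2.28.

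Markers of cell types moved between the lines in tChIP-Seq as well. All 6 reported excitatory neuron markers with a region rose, with a median log2 fold change of 1.35 where the median of all regions was 0.00 and 17.0% of them rose, among them *Camk2a* (2.27), *Slc17a7* (1.65), *Neurod2* (1.37) and *Neurod6* (1.33). *Tbr1*, also a marker of this list, had no region. Their summed level was 403, 386.5 and 354 CPM in *Rosa* line tChIP-Seq and 1052, 1120 and 1105 CPM in *Camk2a* line tChIP-Seq, with *Nrn1* (mean 78.5 CPM) as the most abundant of the 6 in the former and *Camk2a* (339 CPM) in the latter. In single ChIP-Seq of the lines, 1 of the 6, *Camk2a*, was called, where 2.15% of all regions were, and it was higher in the *Camk2a* line there too (0.52, SE 0.0384, adjusted p = 3.74e-27). *Miat* and *Meg3* were also higher in the *Camk2a* line than in the *Rosa* line in tChIP-Seq. The part of excitatory neurons in that result was not tested.

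Of the astrocyte markers, 7 of 8 had a region and all 7 fell, where 14.6% of all regions did, with a median of -1.60 and with *Aldh1l1* (-2.86), *Aqp4* (-2.71), *Gja1* (-2.29) and *Slc1a3* (-1.60) as the largest. Their sum was 419.5, 489 and 469 CPM in the *Rosa* line and 204, 199.9 and 199 CPM in the *Camk2a* line, with *Sox9* as the most abundant. All 7 endothelial markers with a region, of 8, fell by a median of 2.19, led by *Robo4* (-3.09), *Cdh5* (-3.01), *Tie1* (-2.31) and *Tek* (-2.19), and their sum was 269, 266 and 277 CPM against 75.5, 71.4 and 81.0 CPM, with *Flt1* as the most abundant in the *Rosa* line and *Kdr* in the *Camk2a* line. *Tek* lost its call in 1 of 11 alternatives, the Wald test of DESeq2 (adjusted p = 0.0108). With at least 10 counts in every library, 2 of the 7 endothelial markers remained, and both fell, with a median of -1.46. *Gfap* and *Cldn5* had no region. *Neat1* fell in the same libraries as these glial and vascular markers, and their part in that result was not tested.

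Of the oligodendrocyte markers, 6 of 9 had a region; 5 fell, where 14.6% of all regions did, led by *Olig2* (-2.48), *Mag* (-2.19), *Mog* (-1.96) and *Cnp* (-1.34), and *Mbp* rose (1.18), where 17.0% did. Their sum was 315, 311 and 319.5 CPM in the *Rosa* line and 197, 207 and 207 CPM in the *Camk2a* line. *Cnp* was the most abundant in the *Rosa* line (mean 100.6 CPM), and *Mbp*, the marker that rose, in the *Camk2a* line (114.5 CPM). In single ChIP-Seq, *Olig1* (-0.33), *Olig2* (-0.24) and *Cnp* (-0.19) were called as lower in the *Camk2a* line, where 2.15% of all regions were called in either direction, and these calls were lost in 1 of 11, 7 of 11 and 9 of 12 alternatives. Of the inhibitory neuron markers, 6 of 9 had a region and 5 fell, against 14.6% of all regions, led by *Dlx2* (-1.30), *Lhx6* (-1.20), *Gad1* (-1.03) and *Dlx1* (-0.97), while *Gad2* was not called. *Dlx5* lost its call in 2 of 12 alternatives and *Gad2* gained one in 3. Their sum was 176, 183 and 163 CPM against 92.8, 89.1 and 91.7 CPM, with *Dlx2* as the most abundant in the *Rosa* line and *Dlx5* in the *Camk2a* line, and the part of these 2 cell types in the values of *Neat1* and *Malat1* was not tested. None of the 8 microglia markers on the list had a region at a TSS, and other genes of these cells were not looked at. No marker region with counts in one group was at 0 in another.

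Between the assays, *Meg3* and the excitatory neuron markers were lower in the same libraries of the *Rosa* line, where all 6 of these fell in tChIP-Seq against 22.5% of all regions, with a median log2 fold change of -0.90, and the 7 astrocyte markers were higher, with a median of 0.56, of which *Slc1a3* lost its call in 2 of 12 alternatives and *Aldh1l1* in 1. Of the endothelial markers 4 of 7 were higher (median 0.47) and of the inhibitory neuron markers 2 of 6 (median 0.27), where 24.7% of all regions were, and 3 of 6 oligodendrocyte markers were lower (median -0.31), of which *Mog* lost its call in 5 of 11 alternatives. *Robo4* and *Dlx1* lost theirs in 2 and 3 of 12. *Meg3* lay below all 6 excitatory markers in this comparison, whose lowest value was -1.30, and the part of these cell types in its value was not tested.

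In the *Camk2a* line, where tChIP-Seq gave the lower value for *Neat1* and the higher one for *Miat*, 5 of the 6 excitatory markers were higher (median 0.38), where 25.3% of all regions were. All 7 endothelial markers (median -1.97), 5 of 7 astrocyte markers (-1.41), 5 of 6 oligodendrocyte markers (-1.85) and 3 of 6 inhibitory neuron markers (-0.52) were lower, where 22.6% of all regions were, and *Mbp* was higher (0.65). With at least 10 counts in every library, the 2 endothelial markers that remained had a median of -1.04 and the 5 astrocyte markers, of which 3 were lower, had -0.94. In single ChIP-Seq of this line, the summed levels were 870, 839 and 831 CPM for the excitatory markers, 211, 203 and 206 CPM for the endothelial markers and 348, 347 and 306 CPM for the astrocyte markers. They were 345, 340 and 338 CPM for the oligodendrocyte markers and 139, 151.5 and 154 CPM for the inhibitory neuron markers. The part of these cell types in the values of *Neat1*, *Malat1* and *Miat* was not tested.

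Other long noncoding RNA genes were compared between the lines in tChIP-Seq. Of 49 genes on this list, 31 were annotated under the names searched and 18 had a region, of which 4 rose and 2 fell, where 17.0% of all regions rose and 14.6% fell, with a median log2 fold change of -0.03. Those that rose were *Snhg11* (1.25), *Pvt1* (0.52), *Snhg1* (0.45) and *A330023F24Rik* (0.32), of which *Pvt1* lost its call in 2 of 12 alternatives. Those that fell were *Sox2ot* (-1.84), which overlaps the neural stem cell gene *Sox2*, and *Nespas* (-1.59), the antisense transcript of the imprinted *Gnas* cluster. *Neat1* thus lay below and *Meg3* above the whole range of these 18 regions.

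A further list held genes for proteins of paraspeckles and nuclear speckles, the bodies that contain *Neat1* and *Malat1* RNA, and for proteins that bind *Miat* RNA. All 22 had a region, of which 2 rose in tChIP-Seq of the *Camk2a* line and none fell, where 17.0% of all regions rose and 14.6% fell, with a median log2 fold change of -0.07. *Celf3*, a neuronal RNA binding protein gene that is on the list because its product binds *Miat* RNA, rose by 1.38 (SE 0.0898, adjusted p = 1.78e-23), and *Cpsf6*, a subunit gene of cleavage factor I, rose by 0.24 (SE 0.0769, adjusted p = 0.00898), a call that was lost in 9 of 12 alternatives, where the adjusted p reached 0.125. With library totals alone, 1 of the 22 rose and 4 fell, with a median of -0.14, where 14.3% of all regions rose and 18.4% fell. Between the assays, 17 of the 22 were lower in tChIP-Seq of the *Rosa* line and 18 in that of the *Camk2a* line, where 22.5% and 22.6% of all regions were, with medians of -0.36 and -0.37 where those of all regions were 0.00 and -0.01. With library totals, these counts were 13 and 18, where 14.0% and 20.8% of all regions were lower. *Malat1* was lower between the assays in both lines too, by more than these medians.

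For each member region, the TSS regions with the most similar pattern over the 12 libraries were taken by Euclidean distance between centred log2 CPM values, among 11553 others. *Neat1* was closest to *Id3* (distance 0.320), which encodes an inhibitor of basic helix-loop-helix factors, to *Pde8a* (0.338), and to a region shared by *S1pr1* and *Gm9889* (0.469), where the median distance was 3.22. In tChIP-Seq, the lines differed by -2.36 at *Id3* and by -2.14 at *Pde8a*. These regions were chosen by likeness over the same libraries, so values near that of *Neat1* follow from the choice. *Miat* was closest to *Hs6st3* (0.173), *Crmp1* (0.183) and *Pgr* (0.202), with a median distance of 1.41, and *Meg3* to *Snhg11* (0.451), a long noncoding RNA gene, to *Arpp21* with *2900079G21Rik* (0.479), and to *Fbxw7* (0.581), with a median of 2.25. *Malat1* was closest to *Rhob* (0.226) and to *Ppp1r10* with *Mir1894* (0.243), with a median of 1.32.

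In tChIP-Seq, the regions of *Miat* and *Meg3* were higher in the *Camk2a* line than in the *Rosa* line, and they cover annotated starts. The promoter sequences of both genes are shown for this reason. Each runs from 250 bases before to 50 after the first annotated start within the region, on the strand of the gene in mm9, at chr5:112657919-112658218 (minus) for *Miat* and chr12:110778961-110779260 (plus) for *Meg3*. The TATA box letters TATAAA, the CCAAT box as spelled, the GC box letters GGGCGG, the E-box letters CACGTG and the cyclic AMP response element letters TGACGTCA were searched on both strands, and capitals mark every match.

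Miat: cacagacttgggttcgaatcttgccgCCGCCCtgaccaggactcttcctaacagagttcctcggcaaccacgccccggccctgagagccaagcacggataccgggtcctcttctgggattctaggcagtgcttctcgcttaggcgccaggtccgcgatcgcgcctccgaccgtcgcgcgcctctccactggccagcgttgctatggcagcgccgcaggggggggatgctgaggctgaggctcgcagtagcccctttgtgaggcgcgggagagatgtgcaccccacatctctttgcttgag

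Meg3: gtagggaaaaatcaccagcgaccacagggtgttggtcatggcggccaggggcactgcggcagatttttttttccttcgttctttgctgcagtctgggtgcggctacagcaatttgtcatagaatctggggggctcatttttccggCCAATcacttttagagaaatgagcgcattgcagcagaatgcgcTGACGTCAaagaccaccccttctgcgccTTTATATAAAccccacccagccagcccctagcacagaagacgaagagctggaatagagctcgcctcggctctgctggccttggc

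*Miat* held GGGCGG on the opposite strand, first base at -224 from the start, and no other match. *Meg3* held CCAAT at -105, TGACGTCA at -62 and TATAAA at -30 on its own strand, and TATAAA on the opposite strand at -34, which overlaps the other copy. Neither held CACGTG. Among 14903 promoters of the same length, TATAAA was found in 6.25%, CCAAT in 36.9%, GGGCGG in 65.1%, CACGTG in 9.91% and TGACGTCA in 3.38%.

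The GC content was 64.3% for *Miat* and 54.0% for *Meg3*, where the median promoter had 61.3%. CpG observed over expected was 0.807 and 0.595, with a median of 0.762. At *Malat1*, the window at the first start within the region (chr19:5797415-5797714) lies inside the transcribed gene, had 45.0% GC and held CCAAT once on each strand. The window at the full-length start (chr19:5802622-5802921), added after the values were seen, lies outside the region, had 47.0% GC and held none of the motifs. The *Rmst* start, likewise added, had 46.3% GC and a CpG ratio of 0.187, below that of all but 2.02% of the promoters, and no region covered it.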

How the data were processed

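The authors mapped the reads to mm9, removed duplicates, called peaks and deposited, for each of the 12 H3K4me3 libraries, a raw count of reads per region. Their processing notes name bcl2fastq 1.8.4, Bowtie2 2.1.0, Bowtie 1.0.0, SAMtools 0.1.19 and bedtools 2.17.0. Input and FLAG libraries were not analysed here. All libraries share 17993 regions, which were compared with GENCODE M1 starts on mm9. Each comparison of 2 groups was fitted on its own 6 libraries, and the interaction on 12, with edgeR 4.0.16 in R 4.3.3 (TMM, glmQLFit, glmQLFTest, no filter on low counts, no covariate, Benjamini-Hochberg adjustment over all regions, called under 0.01). SEs were the log2 fold change over the square root of F. Replicate pairs had a chi-square per degree of freedom from 1.03 to 1.10, so that they differed little beyond sampling noise, and p-values measure only the spread between these libraries. The test was checked on simulated counts.

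The members and the lists of marker, long noncoding RNA and nuclear body genes were chosen with earlier results of these data known. Named were the member regions, regions within 100 kb, up to 3 nearest patterns (at least 20 CPM on average, pseudocount 0.5 CPM), and per list at most 4 called genes with the largest change in each direction. A listed gene was represented by its TSS region with the highest count. Not reported here are 1 neighbouring region, 1 similar pattern, 1 promoter and 1 excitatory neuron marker. *Rmst* had no region, so its planned ratio to *Miat* was not computed. The alternatives were DESeq2 1.42.0 (size factors or Wald test), library totals, at least 10 counts in every library, a replicate block, all 12 libraries in a single fit, and leaving out each library. Other values used Python 3.11.15 with numpy 2.4.6, pandas 2.3.3 and matplotlib 3.10.9.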

Additional observations from a re-analysis of the deposited data

Results flagged for a closer look

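For all 4 measured genes, the difference between the lines was not the same in tChIP-Seq as in single ChIP-Seq, by a test of that difference over the 12 libraries. The line effect in tChIP-Seq minus that in single ChIP-Seq was 1.06 on the log2 scale for *Miat*, 1.35 for *Meg3*, -2.26 for *Neat1* and -0.17 for *Malat1*. The *Malat1* value was called at an adjusted p of 0.00654 and lost its call in 8 of 17 alternatives, over which its adjusted p ranged from 7.18e-06 to 0.0335. The other 3 were called in every alternative run.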

How the results depend on the processing

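For the 4 member regions over 5 comparisons, 247 of 258 results under an alternative kept their direction and their side of the threshold. The sign turned, without a call, for *Neat1* between the lines in single ChIP-Seq, with library totals (0.00) and on leaving out libraries (from -0.06 to 0.01), and for the region inside *Rmst* between the assays in the *Camk2a* line on leaving out libraries (from -0.10 to 0.06). In tChIP-Seq, the line difference ranged over all 12 alternatives from 0.95 to 1.06 for *Miat*, from 1.32 to 1.61 for *Meg3*, from -2.35 to -2.20 for *Neat1* and from -0.29 to -0.20 for *Malat1*.

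The interaction of *Malat1* was no longer called with the Wald test of DESeq2 (-0.16, adjusted p = 0.0273). Leaving out libraries gave from -0.19 to -0.14, and the call was lost without *Rosa* line single ChIP-Seq replicate 1 (adjusted p = 0.0122) or 3 (0.0144), *Rosa* line tChIP-Seq replicate 1 (0.0335) or 3 (0.0149), *Camk2a* line single ChIP-Seq replicate 2 (0.0264), and *Camk2a* line tChIP-Seq replicate 1 (0.0259) or 3 (0.0110). *Neat1* between the assays in the *Rosa* line was called only with library totals (0.24, adjusted p = 0.000919). The cause was not tested.

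The number of regions called between the lines in single ChIP-Seq was 386, and it was 251 with library totals and 17 with the Wald test, which gave an adjusted p to 3691 regions and none to *Miat*, *Meg3* and the region inside *Rmst*, so these have no result there. Leaving out libraries gave from 118 to 296, with 190 and 164 without *Rosa* line replicates 2 and 3 and 204, 118 and 226 without *Camk2a* line replicates 1, 2 and 3. Between the assays in the *Camk2a* line, 8617 regions were called and 5563 with the Wald test. The cause was not tested.

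With library totals, 3 of 16 mean levels moved by more than their SD, *Neat1* (128 CPM) and *Malat1* (381 CPM) in *Rosa* line tChIP-Seq and *Malat1* (570.4 CPM) in *Rosa* line single ChIP-Seq. Among 5870 results for other named regions, 98 lost and 28 gained a call and 170 changed sign, none of them with a call before or after. The planned ratio from the sum of a gene's regions equals the ratio given, since each gene has 1 region.

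Samples of different groups share replicate numbers, and within a line same-numbered libraries of both assays may come from the same pool of tissue. The correlation of deviations of same-numbered libraries lay between -0.019 and 0.044, so the numbers were not taken as pairs. With the replicate block, 5468 regions were called between the lines in tChIP-Seq, against 5682, and the calls of the member regions were the same in the 5 comparisons. Each library correlated best with its own number between the assays in the *Rosa* line and between the lines in single ChIP-Seq, but not in the other pairs of groups.

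Depth limits small differences most in *Rosa* line tChIP-Seq, where the totals were lowest and *Meg3* had 34, 24 and 34 counts.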

Other observations

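Markers of brain regions were compared with the tissue label, cerebral cortex. Of 4 forebrain genes, 3 had a region, of which *Emx1* (1.28) and *Lhx2* (0.60) were higher and *Emx2* (-0.91) was lower in the *Camk2a* line than in *Rosa* line tChIP-Seq, on the log2 scale, where 17.0% of all regions were higher and 14.6% lower. Their summed level was 247, 270.2 and 275 CPM in *Rosa* line tChIP-Seq and 384, 365 and 399 CPM in *Camk2a* line tChIP-Seq, with *Emx2* (mean 103 CPM) as the most abundant in the former and *Emx1* (228.5 CPM) in the latter. Of 6 midbrain and hindbrain genes, *En2* (-1.29) and *Gata3* (-3.22) had a region, and both were lower, against the same 14.6%. Their sum was 66.3, 66.8 and 59.0 CPM against 24.3, 19.1 and 23.6 CPM, with *En2* as the most abundant in both, so that counts at these regions were present in libraries labelled as cortex. With at least 10 counts in every library, 1 of the 2 remained (-1.28). In single ChIP-Seq, the mean sum was 34.3 CPM in the *Rosa* line and 28.9 CPM in the *Camk2a* line. Between the assays in the *Rosa* line, both were higher in tChIP-Seq (median 1.21), where 24.7% of all regions were.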
